A study of Neurospora crassa with 34 samples.

Results

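OY337 is a *Neurospora crassa* strain in which a distal segment of the right arm of linkage group (LG) II, carrying arg-12, was moved to the tip of the right arm of LG IV. Its poly(A) mRNA was counted in 2 of the 14 libraries of translocation strains, and the other 12 libraries are 2 each of ALS159, AR16, OY329, OY350, UK2-32 and UK3-41. The OY337 libraries were chosen by strain label, not by any measured value. OY337 is a mat A isolate with the genotype T(II->IV)OY337 and an al-2 allele. The strains set against it are ALS159 (mat A, T(IV->VI)), AR16 (mat a, In(IL->IR)), OY329 (mat A, T(VI->III)), OY350 (mat A, T(VIL->IR)), UK2-32 (mat A, T(IVR->VL)) and UK3-41 (mat A, inl, T(VR)). Every one of them carries its own rearrangement and background, each is 1 isolate, and none is wild type. All cultures were shaken for 16 h at 32 °C in minimal medium with 1.5% sucrose, and the labels call the tissue germinated conidia. The right end of LG IV is drawn as missing in OY337 in the study's own map.

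*Neurospora* grows as branching mycelium on sugar, and its vegetative transcripts are dominated by growth, nutrient uptake and biosynthesis. When glucose falls, carbon repression is lifted and genes for high-affinity sugar uptake and for enzymes that break down sucrose, starch, cellulose and xylan are transcribed. Asexual spore formation (conidiation) brings a further set of transcripts, such as the hydrophobin that coats the conidia. H3K27me2/3, the repressive histone mark laid down by SET-7, covers silent domains that are often next to telomeres. For OY337, the authors' gene table of changes in this mark names 59 genes with a gain, all on LG II, and 38 with a loss, all on LG IV. The remaining 9633 of 9730 genes were not listed for OY337 and are the main subject here.

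The OY337 libraries had 8301343 and 8167618 reads on genes, and the 14 libraries ran from 6435058 to 27994440. Values below are CPM, counts scaled to a common library size with TMM factors. CPM was not corrected for gene length, so levels are compared between strains and not between genes. A gene was called when edgeR's quasi-likelihood test gave a Benjamini-Hochberg adjusted p under 0.05, and log2 fold changes are OY337 over the mean of the 6 strains. The 2 libraries of a strain come from replicate samples, so p-values measure the spread between them. The OY337 libraries had a median absolute log2 difference of 0.14 between them, and chi-square per gene was 12.02, well over counting error. Both values were the lowest of the 7 strains. They were 0.34 and 76.1 in AR16, and 0.40 and 198 in OY329. OY329 replicates 1 and 3 had the highest and lowest depth, with 27994440 and 6435058 reads. All 7 strains shared 1 estimate of the spread of each gene, so the spread within every strain enters each p-value.

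The OY337 transcriptome lay near those of 4 strains and far from those of 2. The median absolute log2 difference of OY337 was 0.27 from UK2-32, 0.28 from OY350, 0.32 from AR16 and 0.38 from OY329. It was 0.56 from ALS159 and 0.63 from UK3-41. Between the 2 libraries of a strain the same measure was 0.17 in UK2-32, 0.25 in OY350, 0.34 in AR16 and 0.40 in OY329. It was 0.18 in ALS159 and 0.19 in UK3-41. The AR16 and OY329 libraries thus differed from each other by more than their strain mean differed from OY337. The order among the 4 near strains was not tested. Against ALS159, 1877 genes were higher and 1625 lower in OY337, which is 23% and 19.9% of those tested. Against UK3-41, 1953 genes (23.9%) were higher and 2032 (24.9%) lower. Against OY329 the counts were 768 higher (9.4%) and 633 lower (7.75%), and against AR16 they were 317 higher (3.88%) and 372 lower (4.55%). Against UK2-32, 186 genes (2.28%) were higher and 176 (2.15%) lower, and OY350 was the nearest by this count with 128 (1.57%) and 114 (1.4%). These 6 comparisons share the OY337 libraries.

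**Figure D1:**
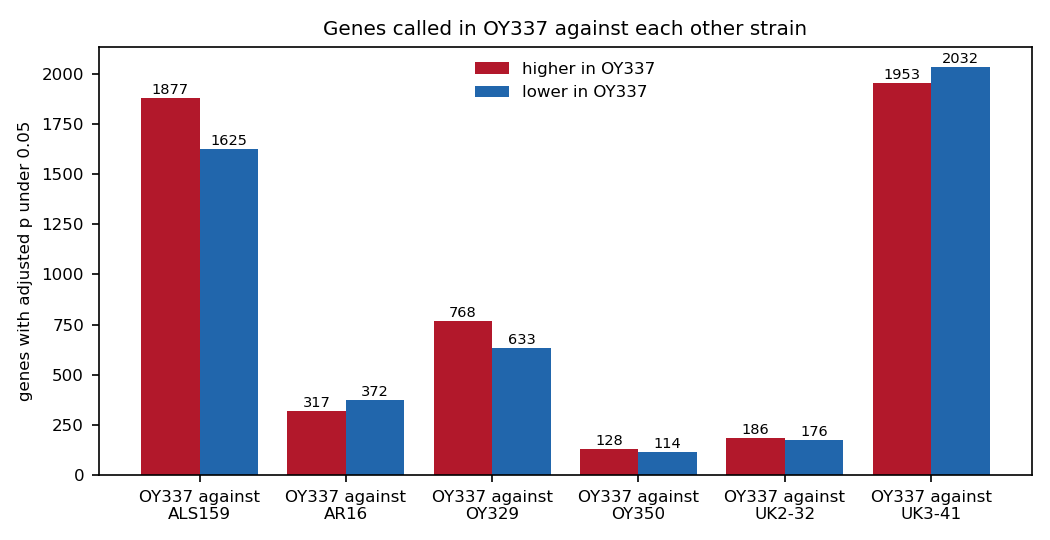
Number of genes (vertical axis) called higher (red) and lower (blue) in OY337 against each of the 6 strains (horizontal axis), at an adjusted p under 0.05 from edgeR. The bars for ALS159 and UK3-41 reach 1625 to 2032 genes, and those for OY350 reach 128 and 114.

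Against the mean of the 6 strains, 673 genes were higher in OY337 (8.24% of the 8170 tested) and 224 were lower (2.74%). Of the 8109 tested genes that are unlisted, 669 rose (8.25%) and 210 fell (2.59%), with median log2 fold changes of 0.96 and −0.78 among the called. A change of at least 1 on the log2 scale was reached by 311 of the risen and 70 of the fallen genes. Of the 669 risen genes, 557 were also called against ALS159 and 515 against UK3-41, but 190 against AR16, 168 against OY329, 108 against OY350 and 101 against UK2-32. Their median log2 difference was 1.62 from ALS159 and 1.43 from UK3-41, and from 0.36 to 0.72 from the other 4. Of the 210 fallen genes, 160 were called against ALS159, 180 against UK3-41 and between 54 and 120 against each of the others. With ALS159 and UK3-41 left out of the reference, a choice made after their distance was seen, 135 unlisted genes were higher and 71 lower. Of these, 119 and 47 were among the 669 and 210. Without OY337 replicate 1, 103 were higher and 25 lower, and without replicate 2, 156 and 30. The rises described first below are those in which both OY337 libraries lay above all 12 others, which held for 193 of all tested genes (2.36%), 158 of them called (1.93%). For falls, 133 (1.63%) lay below all 12, and 85 of these were called (1.04%).

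The 10 largest rises among unlisted genes that stood above every other library held 2 named genes, of sugar uptake and of xylan regulation. hgt-1, a high-affinity glucose transporter, had 379 and 279 CPM in OY337, against a lowest, median and highest of 8.64, 75.1 and 209 CPM in the other 12 libraries. Both OY337 values lay above the UK2-32 and UK3-41 libraries, the next highest, and ALS159 was far below the rest. The log2 fold change was 2.34 (SE 0.20, adjusted p = 7.87e-05), and 2.00 (adjusted p = 0.00364) without ALS159 and UK3-41. xlr-1, the transcription factor that turns on genes for xylan breakdown, had 39.9 and 47.6 CPM in OY337, against 1.36, 10.1 and 30.2 CPM (lowest, median, highest) in the others. Its log2 fold change was 2.19 (SE 0.18, adjusted p = 7.16e-05), and 1.55 (adjusted p = 0.00637) without the same 2 strains. AR16 and UK2-32 came nearest to OY337 for this gene, with 17.2 to 30.2 CPM.

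The other genes among the 10 largest of these rises have no name in the annotation used. NCU01970 had 106 and 94.2 CPM in OY337, against 2.91, 22.9 and 51.1 CPM in the others, a log2 fold change of 2.41 (SE 0.20, adjusted p = 7.16e-05). It was called against all 6 strains one by one. NCU05919 had 29.0 and 38.6 CPM in OY337, with 0.118 to 27.6 CPM in the others. AR16 had 0.125 and 0.118 CPM of it and OY350 27.6 and 27.4 CPM, and the log2 fold change was 2.39 (SE 0.19, adjusted p = 7.16e-05). NCU03415 had 983 and 747 CPM in OY337, against 11.5, 185 and 584 CPM, and NCU03648 had 368 and 368 CPM, against 3.33, 166 and 337 CPM. Their log2 fold changes were 2.56 (SE 0.31, adjusted p = 0.000963) and 2.29 (SE 0.34, adjusted p = 0.0027). Neither call held without ALS159 and UK3-41 (adjusted p = 0.0648 and 0.461), and ALS159 had the lowest values of both. NCU02188 (2.77), NCU09777 (2.49), NCU05414 (2.17) and NCU05143 (1.97) complete this group of log2 fold changes, and of these NCU09777 and NCU05414 stayed called without the 2 strains.

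**Figure D2:**
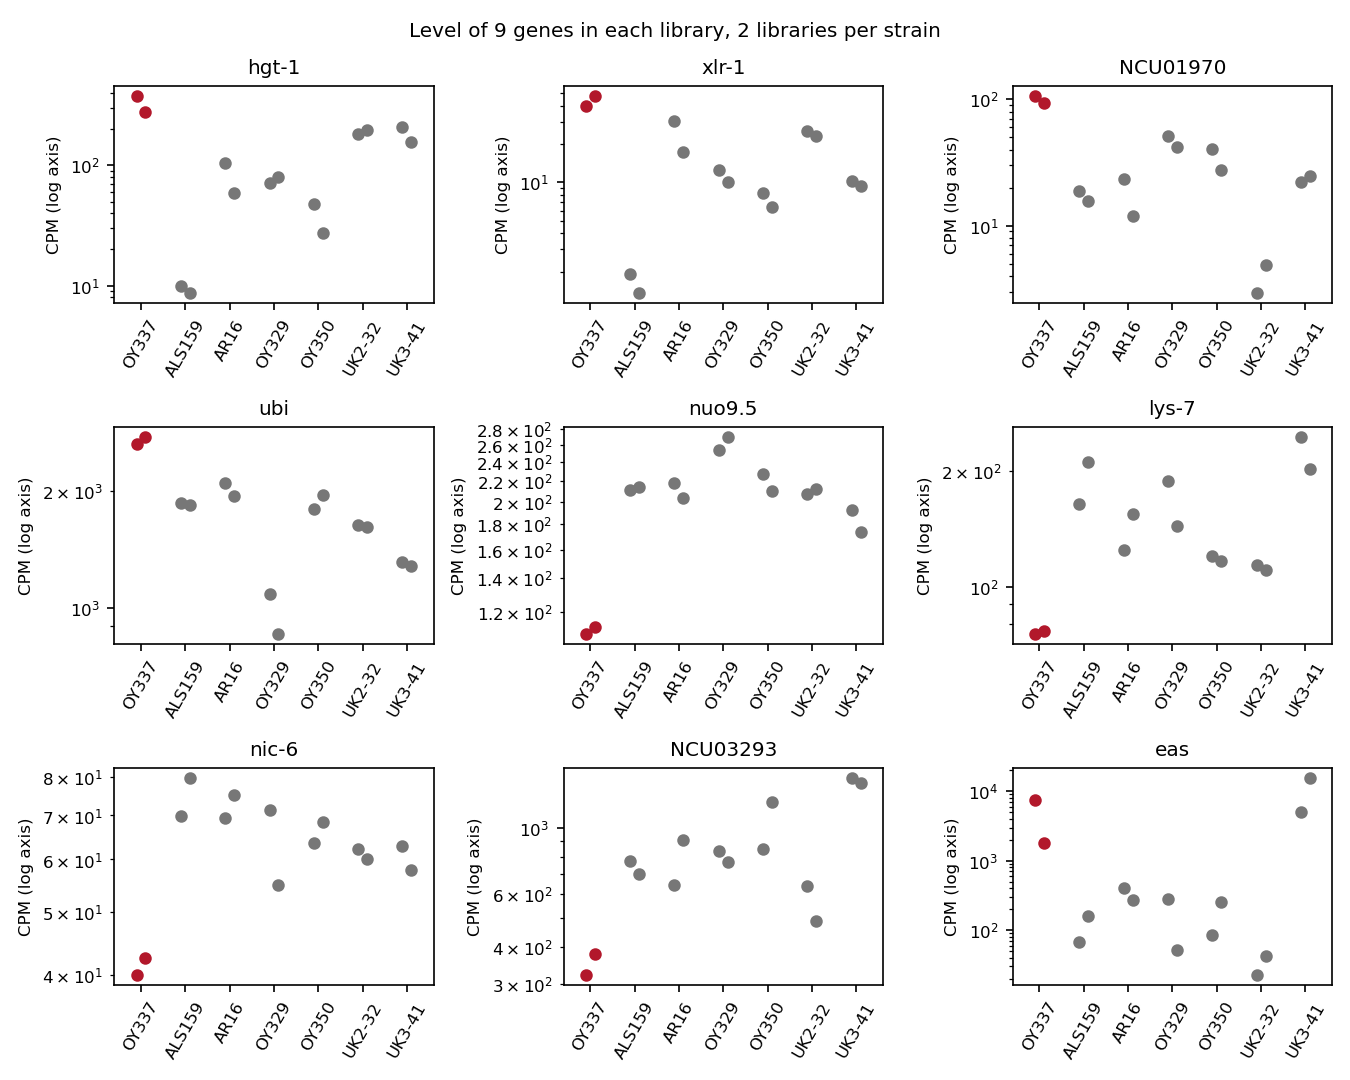
CPM (vertical log axis) of 9 genes in each library, with OY337 in red at the left and the 6 other strains in grey. hgt-1, xlr-1, NCU01970 and ubi lay above all 12 other libraries in both OY337 libraries, nuo9.5, lys-7, nic-6 and NCU03293 below all 12, and eas was high in OY337 and UK3-41.

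A small number of unlisted genes differed from every strain in its own comparison. Their naming, and that of the other genes in this paragraph, followed sight of their values. Of the 669 risen genes 5 were called against all 6 strains and 19 against 5, and of the 210 fallen genes 20 were called against all 6 and 11 against 5. These 20 falls include all 17 genes of a single run at the right end of LG IV, described below, with 0 reads in OY337. The 5 risen genes were NCU00598, NCU00809, NCU00827, NCU01970 and NCU06050. NCU00809 had 46.9 and 51.1 CPM in OY337, against 7.02, 15.0 and 28.3 CPM, a log2 fold change of 1.76 (SE 0.15, adjusted p = 7.87e-05). NCU00598 had 66.9 and 69.7 CPM in OY337, against 16.9, 36.4 and 43.4 CPM, a log2 fold change of 1.09 (SE 0.13). NCU06050 had 66.0 and 56.8 CPM, against 21.2, 30.6 and 39.1 CPM, and NCU00827 had 42.0 and 49.3 CPM, against 15.6, 21.4 and 35.8 CPM. In each of these genes both OY337 libraries lay above all 12 others, and all 5 kept their call without ALS159 and UK3-41. Both traits follow in part from how the 5 were picked, since the same libraries were used.

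Several other transcripts stood above all 12 other libraries. ubi, which encodes polyubiquitin, had 2642 and 2763 CPM in OY337, against 858, 1722 and 2097 CPM in the others. The OY337 libraries agreed closely and AR16 came next, and the log2 fold change was 0.79 (SE 0.12, adjusted p = 0.00259). The unnamed NCU00673 had 2266 and 2267 CPM, against 567, 1146 and 1760 CPM, a log2 fold change of 0.97 (SE 0.22, adjusted p = 0.0203). pep4, a vacuolar protease named after its values were seen, had 1688 and 1555 CPM in OY337, against 713, 1213 and 1483 CPM, a log2 fold change of 0.57 (SE 0.12, adjusted p = 0.0159). msh4, a homologue of a meiotic recombination protein, had 63.9 and 67.6 CPM in OY337, against 4.32, 27.8 and 52.2 CPM. Its log2 fold change was 1.63 (SE 0.21, adjusted p = 0.00131), and 0.81 (adjusted p = 0.139) without ALS159 and UK3-41. hpt-1, also named after its values were seen, had 210 and 225 CPM in OY337, against 147, 156 and 172 CPM in the others (log2 fold change 0.46, SE 0.10, adjusted p = 0.0153). The calls of NCU00673, pep4 and hpt-1 were lost without ALS159 and UK3-41 (adjusted p = 0.194, 0.279 and 0.0737), and that of ubi was kept (0.0285).

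Among genes of plant cell wall and starch breakdown, all calls in OY337 were rises. Of 21 tested genes on this list, 6 rose and 0 fell, where 8.24% of all tested genes rose and 2.74% fell, with a median log2 fold change of 0.41, while the median over all genes tested was 0.00 at 2 decimals. A fitted value over 0 was found for 14 of the 21. The lowest values were those of gh5-1 (−0.69), gh61-2 (−0.34) and gh7-1 (−0.26), none of them called. gh10-1, gh10-2 and gh11-2 did not pass the filter, and gh11-1 was not called (0.00). Besides xlr-1, the called members with the smallest p were cdt-1, gla-1 and cbh-1. cdt-1, a cellodextrin transporter, had 223 and 245 CPM in OY337, against 7.77, 69.4 and 327 CPM (log2 fold change 2.03, SE 0.29, adjusted p = 0.00183). Both UK2-32 libraries and 1 of OY329 were above OY337, while ALS159 and UK3-41 had 7.77 to 10.5 CPM. gla-1, a secreted glucoamylase, had 514 and 380 CPM in OY337, against 55.4, 181 and 512 CPM (log2 fold change 1.39, SE 0.22, adjusted p = 0.00355). cbh-1, a cellobiohydrolase, had 19.1 and 21.4 CPM in OY337, with a log2 fold change of 1.14 (SE 0.22, adjusted p = 0.00948). The regulator of cellulose genes clr-1, named after its values were seen, had 79.7 and 72.2 CPM in OY337, against 23.2, 53.9 and 73.8 CPM (log2 fold change 0.68, SE 0.16, adjusted p = 0.0248). Without ALS159 and UK3-41 the list kept 1 call, xlr-1, and its median was 0.17.

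The list of sugar uptake and carbon use had rises only. Of 19 tested genes, 3 rose and 0 fell (8.24% and 2.74% over all genes tested), 17 had a fitted value over 0, and the median was 0.41. Without ALS159 and UK3-41, 1 stayed called, hgt-1, and the median was 0.16. inv, the secreted invertase that splits sucrose, had 2846 and 3453 CPM in OY337, against 75.4, 786 and 6644 CPM, a log2 fold change of 1.96 (SE 0.36, adjusted p = 0.00813). The value rests on ALS159 and UK3-41, which had 75.4 to 174 CPM, since OY329 and UK2-32 were above OY337. Without these 2 strains it was 0.53 (adjusted p = 0.63). acu-5, acetyl-CoA synthetase, had 662 and 640 CPM in OY337, against 123, 435 and 748 CPM (log2 fold change 0.76, SE 0.16, adjusted p = 0.0161, and 0.42, adjusted p = 0.339, without these 2 strains). The glycoside hydrolases, enzymes that cut sugar polymers, had 9 rises and 0 falls among 68 tested (median 0.17), and 3 rises (median 0.07) without ALS159 and UK3-41. The share over all genes tested was 8.24% higher. Of the called members, gh2-3, gh76-6 and gh47-5 had log2 fold changes of 1.18, 1.06 and 1.89. Of these 3, gh47-5 stayed called without the 2 strains (1.68, adjusted p = 0.0382), and gh2-3 (0.38, adjusted p = 0.371) and gh76-6 (0.64, adjusted p = 0.167) did not. The unnamed NCU01633, the risen unlisted gene with the most reads, had 10278 and 11013 CPM in OY337, against 753, 4027 and 16761 CPM. Both OY329 libraries lay above it and UK2-32 overlapped it. Its log2 fold change was 1.60 (SE 0.20, adjusted p = 0.00111), and 0.63 (adjusted p = 0.196) without ALS159 and UK3-41.

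Of 16 tested conidiation genes, 4 rose and 0 fell, with a median of 0.45, where 8.24% of all tested genes rose. Of the 4 (eas, con-13, con-8 and tre-1), eas and con-13 were high in OY337 and UK3-41 and low in the other 5 strains. eas, the hydrophobin of the conidial rodlet layer, had 7473 and 1784 CPM in OY337, against 22.5, 208 and 15589 CPM. UK3-41 had 5021 and 15589 CPM, and no library of the other 5 strains passed 411 CPM. The log2 fold change was 4.11 (SE 0.54, adjusted p = 0.00131), and it was 2.74 (adjusted p = 0.0856) without OY337 replicate 1. con-13 had 14.9 and 1.90 CPM in OY337, 73.3 and 111 CPM in UK3-41, and at most 1.06 CPM in the rest. Outside the list, the chitinase-family gene gh18-4 had 40.8 and 7.84 CPM in OY337, 60.0 and 103 CPM in UK3-41, and at most 2.53 CPM elsewhere. NCU09734, named after its values were seen, showed the same layout, with 217 and 46.2 CPM in OY337, 513 and 738 CPM in UK3-41, and at most 5.24 CPM elsewhere.

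These transcripts also differed between the OY337 replicates. OY337 replicate 1 was higher than replicate 2 for eas, con-13, gh18-4, NCU09734, the trehalase gene tre-1 and con-8. tre-1 had 14.4 and 5.47 CPM in OY337, against 0.666, 1.47 and 8.40 CPM, with the highest value in UK3-41. Without replicate 1, con-13 (adjusted p = 0.215), gh18-4 (0.12), tre-1 (0.186) and con-8 (0.369) were not called, and without replicate 2 con-8 (0.113) alone of these lost its call. NCU09734 stayed called either way. con-8 differed from the others in layout, with 912 and 528 CPM in OY337, against 1.81, 369 and 1814 CPM, and high levels in OY329 and UK2-32. ada-6, a regulator of asexual development named after its values were seen, had 64.2 and 44.4 CPM in OY337, while UK3-41 had 130 and 142 CPM, ALS159 had 62.3 and 68.7 CPM, and the other strains had 4.19 to 25.9 CPM. Its log2 fold change was 1.17 (SE 0.19, adjusted p = 0.00423).

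**Figure D3:**
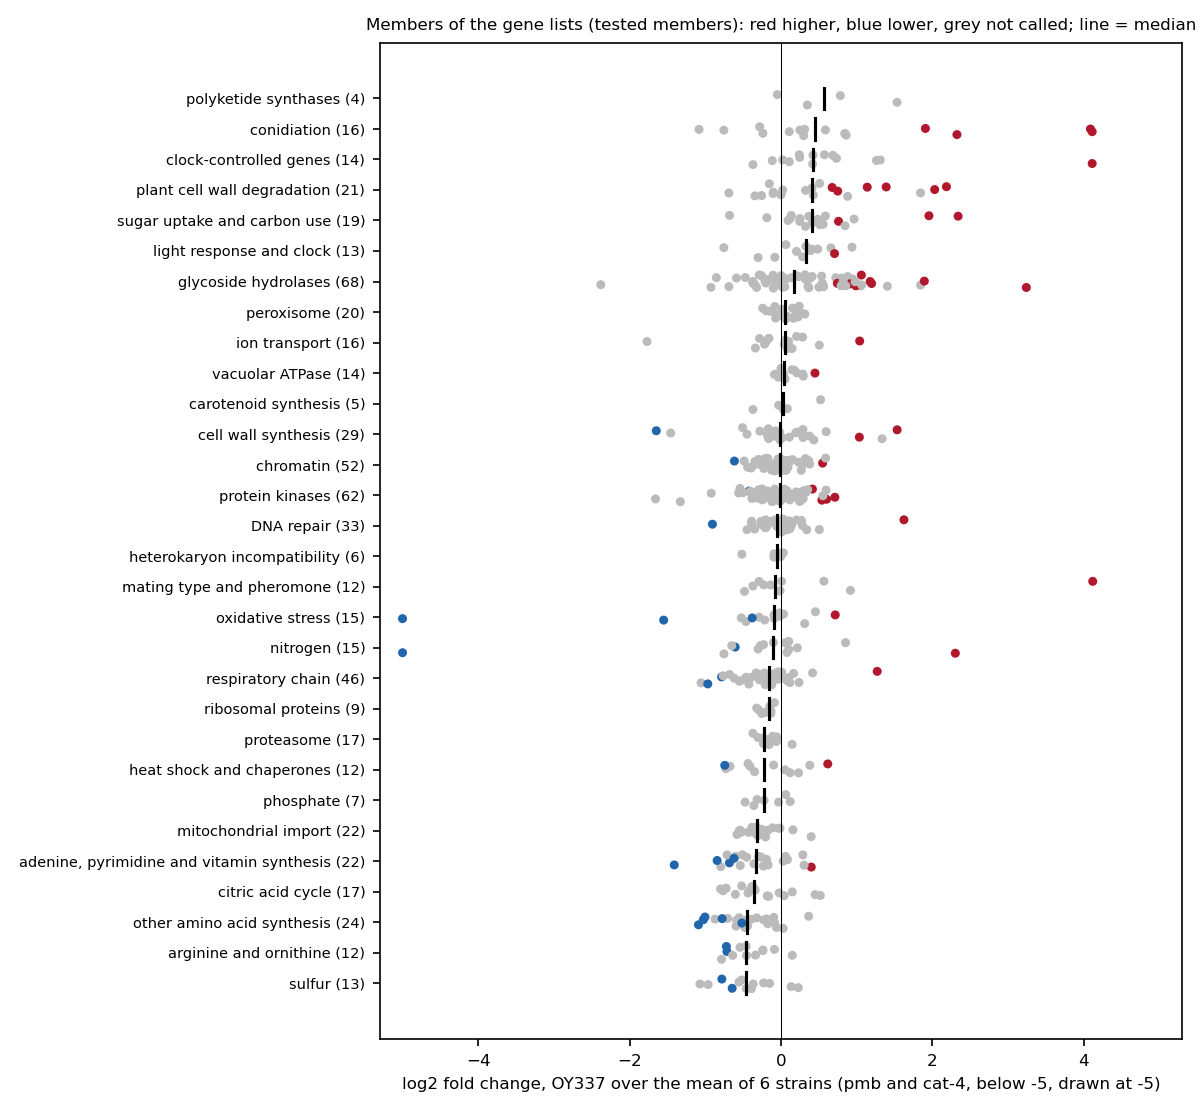
Log2 fold change of OY337 over the mean of the 6 strains (horizontal axis) for each tested member of the gene lists (rows, number tested in brackets), with the median as a black line. pmb and cat-4 have no reads in OY337 and are drawn at −5, and matA-2, gh76-1, gh10-4 and mlh-2, whose fits have no usable error, are left out. Sulfur, arginine and other amino acid lists have medians from −0.46 to −0.45, and conidiation and plant cell wall lists 0.45 and 0.41.

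All calls among genes of amino acid synthesis were falls. Of 24 tested genes of amino acid synthesis other than arginine, 0 rose and 5 fell, where 8.24% of all tested genes rose and 2.74% fell. A fitted value over 0 was found for 2 of them, and the median was −0.45. The arginine list had 0 rises and 2 falls among 12 (median −0.46), and sulfur and methionine had 0 and 2 among 13 (median −0.46). ilv-2, an enzyme of isoleucine and valine synthesis, had 228 and 207 CPM in OY337, against 138, 459 and 1486 CPM, a log2 fold change of −1.02 (SE 0.24, adjusted p = 0.0232). aro-1, the multifunctional enzyme of the shikimate pathway, had 48.2 and 48.1 CPM in OY337, against 38.1, 82.0 and 300 CPM (log2 fold change −1.003, SE 0.17, adjusted p = 0.00507). lys-3 (−1.09) and pro-3 (−0.52) were the other called members with the smallest p. In all of them UK2-32 lay at or below OY337 in at least 1 library and UK3-41 was the highest strain. arg-1, argininosuccinate synthetase, had 224 and 235 CPM in OY337, against 194, 398 and 586 CPM (log2 fold change −0.71, SE 0.15, adjusted p = 0.0154), and arg-3, a subunit of carbamoyl phosphate synthetase, −0.72 (SE 0.18, adjusted p = 0.0307). cys-11, ATP sulfurylase, and met-6 had −0.78 and −0.64. Without ALS159 and UK3-41, 0 genes of these 3 lists were called, and the medians were −0.25, −0.21 and −0.33.

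Purine, pyrimidine and vitamin synthesis had 1 rise (nic-5) and 4 falls among 22 tested genes (median −0.33). Over all tested genes, the shares were 8.24% higher and 2.74% lower. nic-6, a gene of nicotinic acid synthesis, had 40.01 and 42.5 CPM in OY337, against 54.8, 66.0 and 79.9 CPM. All 12 other libraries were higher, and the log2 fold change was −0.68 both with (SE 0.12, adjusted p = 0.00691) and without (adjusted p = 0.0406) ALS159 and UK3-41. ad-8 and ad-4, which act in adenine nucleotide synthesis, had log2 fold changes of −0.84 and −0.62. Neither stayed called without ALS159 and UK3-41 (adjusted p = 0.0876 and 0.196), and both UK2-32 libraries lay below OY337 for ad-4. inl, inositol-phosphate synthase, had 104 and 99.2 CPM in OY337, against 65.5, 179 and 1976 CPM. UK3-41, which carries an inl allele, had 1976 and 1673 CPM, and the fall of 1.41 on the log2 scale (adjusted p = 0.0289) became −0.50 (adjusted p = 0.552) without it and ALS159.

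Outside the end of LG IV, several unlisted falls stood below all 12 other libraries. nuo9.5, a subunit of respiratory complex I, had 108 and 112 CPM in OY337, against 174, 212 and 270 CPM in the others. It was called against all 6 strains, with a log2 fold change of −0.97 (SE 0.11, adjusted p = 0.000523). Of 46 tested genes of the respiratory chain, 1 rose (aod-3, an alternative oxidase, 1.27) and 2 fell (nuo9.5 and nde-2). Over all tested genes, the shares were 8.24% higher and 2.74% lower. nde-2 overlapped the other strains, with both OY329 libraries below OY337, and its log2 fold change of −0.78 was −0.08 (adjusted p = 0.92) without ALS159 and UK3-41. lys-7, named after its values were seen, had 75.2 and 76.8 CPM in OY337, against 111, 149 and 245 CPM (log2 fold change −1.01, SE 0.15, adjusted p = 0.00321). NCU03293, the most reduced of the 5 fallen genes with the highest CPM, had 321 and 377 CPM in OY337, against 488, 803 and 1467 CPM (log2 fold change −1.29, SE 0.20, adjusted p = 0.00313). The others of these 5 were NCU03600 (−0.56), NCU00635 (−0.54), arg-1 and ilv-2. None of these others stayed called without ALS159 and UK3-41 (adjusted p = 0.0903, 0.153, 0.112 and 0.339). NCU08475, NCU06596 and NCU07858, all named after their values were seen, had log2 fold changes of −1.16, −1.35 and −0.96 with both OY337 libraries below all others. cat-3, a catalase whose groups overlapped, had 44.8 and 58.1 CPM in OY337, against 46.5, 174 and 440 CPM (log2 fold change −1.55, SE 0.35, adjusted p = 0.02).

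**Figure D4:**
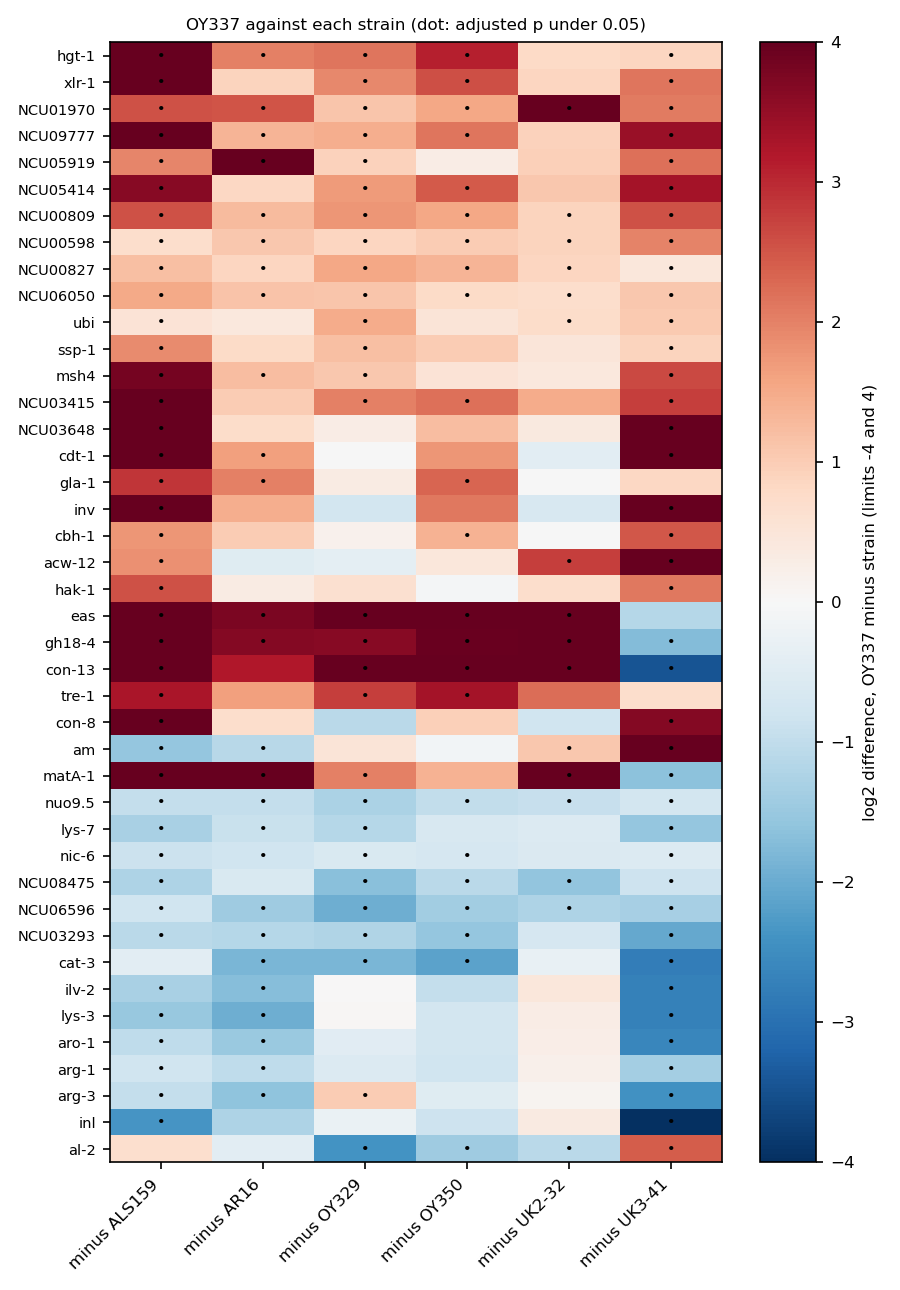
Log2 difference of OY337 minus each of the 6 strains (columns) for 42 genes (rows), red where OY337 is higher and blue where it is lower, with a dot where the adjusted p was under 0.05. nuo9.5 is blue against all 6 strains, eas and gh18-4 are red against 5 and blue against UK3-41, and inv and cdt-1 are darkest against ALS159 and UK3-41.

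The remaining lists held few calls, set against 8.24% of all tested genes higher and 2.74% lower. Cell wall synthesis had 2 rises, acw-12 and gel-1, and 1 fall, the chitin synthase gene chs-6, among 29, and none of the 3 stayed called without ALS159 and UK3-41 (adjusted p = 0.213, 0.786 and 0.139). Chromatin and RNA silencing genes had 1 rise and 1 fall among 52. dim-5, the H3K9 methyltransferase, had 10.5 and 10.6 CPM in OY337, against 5.25, 6.50 and 10.4 CPM (log2 fold change 0.55, SE 0.14, adjusted p = 0.0306), and UK2-32 came close with 10.1 and 10.4 CPM. qde-1, the RNA-dependent RNA polymerase of quelling, had 16.4 and 15.6 CPM in OY337, against 17.5, 23.5 and 49.7 CPM (log2 fold change −0.61, SE 0.14, adjusted p = 0.02). set-7, the H3K27 methyltransferase gene, had 19.0 and 13.1 CPM in OY337, against 8.87, 16.7 and 29.8 CPM, and was not called (log2 fold change 0.04, SE 0.15, adjusted p = 0.893). Protein kinases had 4 rises (prk-1, camk-3, stk-37 and stk-39) and 1 fall (stk-1) among 62. The calls of dim-5 (adjusted p = 0.0958), qde-1 (0.246), prk-1 (0.422), camk-3 (0.323), stk-37 (0.286), stk-39 (0.493) and stk-1 were lost without ALS159 and UK3-41.

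Stress and transport lists were as sparse, set against the same 8.24% and 2.74% of all tested genes. Oxidative stress genes had 1 rise, sod-1 (0.72), and 3 falls, cat-4, cat-3 and gst-3, among 15. Of these, cat-4 lies in the block of genes without reads at the right end of LG IV, described below. The sod-1 value rests on ALS159, with 31.5 and 32.6 CPM, since OY337 had 605 and 536 CPM and the other strains 410 to 865 CPM. Heat shock proteins had 1 rise, hsp30 (0.62), and 1 fall, hsp88 (−0.74), among 12. DNA repair had msh4 up and msh1 down among 33, vacuolar ATPase 1 rise among 14 (vma-11, 0.45) and ion transport 1 among 16 (hak-1, a potassium transporter, 1.04). Without ALS159 and UK3-41, hsp30, msh1, cat-3 and cat-4 stayed called, and sod-1, gst-3, hsp88, msh4, vma-11 and hak-1 did not. The light and clock list had 1 rise, cry, among 13, and the clock-controlled list 1, eas, among 14. cry had 836 and 939 CPM in OY337, 15.6 and 13.8 CPM in UK3-41 and 468 to 2012 CPM in the others. Its log2 fold change was 0.71 (adjusted p = 0.0489), and −0.33 (adjusted p = 0.445) without UK3-41. No member was called among 5 carotenoid genes (log2 fold changes of −0.37 to 0.52), 7 phosphate (−0.47 to 0.12), 6 incompatibility (−0.52 to 0.03), 9 ribosomal protein (−0.32 to −0.09), 17 proteasome (−0.37 to 0.15), 17 citric acid cycle (−0.80 to 0.52), 22 mitochondrial import (−0.58 to 0.40), 20 peroxisome (−0.24 to 0.32) and 4 polyketide synthase genes (−0.05 to 1.53).

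Neither al-2 nor arg-12, the genes that define the OY337 genotype and the moved segment, was called. al-2, which encodes an enzyme of carotenoid synthesis and carries a mutant allele in OY337, had 977 and 821 CPM in OY337, against 145, 1619 and 5135 CPM. It was not called (log2 fold change −0.37, SE 0.21, adjusted p = 0.272), but it was lower (−1.34, adjusted p = 0.0198) without ALS159 and UK3-41. Counts per gene cannot show the allele. arg-12, ornithine carbamoyltransferase, which moved with the segment, had 43.1 and 45.3 CPM in OY337, against 27.8, 80.2 and 148 CPM, and was not called (log2 fold change −0.78, SE 0.24, adjusted p = 0.0582).

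Of 12 tested mating genes, 1 was called higher, matA-1, where 8.24% of all tested genes rose. This mating type A regulator had 9.36 and 8.08 CPM in OY337, against 0, 1.10 and 27.4 CPM. No read of it was found in AR16, which is mat a, nor in UK2-32, which the study's strain table gives as mat A. ALS159, also given as mat A, had 0.745 and 0.123 CPM. The fitted rise (log2 4.12, SE 0.49, adjusted p = 0.00161) depends on these empty or nearly empty libraries, and OY337 lay above OY329 and OY350 and under UK3-41. With UK2-32 left out of the whole fit, 793 unlisted genes were higher and 335 lower. In the nitrogen list 1 of 15 genes rose and 2 fell (nit-4 and pmb), beside 8.24% and 2.74% of all tested genes. Of the fallen genes, pmb lies in the block without reads at the right end of LG IV, described below. The risen gene, am, NADP-dependent glutamate dehydrogenase, is a similar case. It had 510 and 385 CPM in OY337, 0 reads in UK3-41 and 202 to 1505 CPM in the others, and the log2 fold change of 2.30 turned to −0.24 (adjusted p = 0.507) without UK3-41. matA-2 had 0 reads in OY337 and at most 4.53 CPM elsewhere, and matA-3 had 0.234 and 0 CPM.

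The longest run of neighbouring falls was at the right end of LG IV. Gene order was taken from the RefSeq annotation of assembly NC12. From the last gene inward, 28 neighbouring genes had 0 reads in both OY337 libraries, while 5794 to 26919 reads fell on the same stretch in each of the other 12 libraries. Of these 28 genes, 26 had a read in some other library, 18 passed the filter and 15 had at least 1 CPM in all 12. The first gene inside with reads was NCU05180, with 172 and 162 reads in OY337. In all, 17 neighbouring tested genes from NCU05170 to NCU10038 were called lower without a break. Of the 28 genes, 2 are listed for OY337.

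pmb, a permease for basic amino acids, and cat-4, a catalase, are the named genes of this block. pmb had 0 reads in OY337, against 16.9, 46.8 and 283 CPM in the others. It was at least 490-fold lower than their mean (86.6 CPM), by the limit of 3 reads over both OY337 libraries (0.177 CPM). The other fold bounds also use the mean of the 12 libraries, which for pmb and cat-4 lies above the median. cat-4 had 4.85, 8.59 and 49.5 CPM in the others and was at least 79.0-fold lower. NCU10040 and NCU05160 had medians of 298 and 326 CPM elsewhere and were at least 1778-fold and 1679-fold lower. NCU05165 (at least 650-fold), NCU05164 (499-fold), NCU05162 (247-fold), NCU05161 (179-fold), NCU16903 (149-fold) and NCU10038 (99.9-fold) followed as bounds of the same kind. Those for NCU05163, NCU10039, NCU05170, NCU10070 and NCU16902 were 83.1, 55.6, 51.7, 37.2 and 29.7-fold. NCU05166 and NCU16905, named after their values were seen, were at least 20.3-fold and 14.1-fold lower. The adjusted p of the 15 genes before them ran from 1.34e-07 to 0.000871. As given at the start, the study's own map draws the right end of LG IV as missing in OY337. Fewer copies of a gene and less RNA per copy cannot be told apart in these counts.

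**Figure D5:**
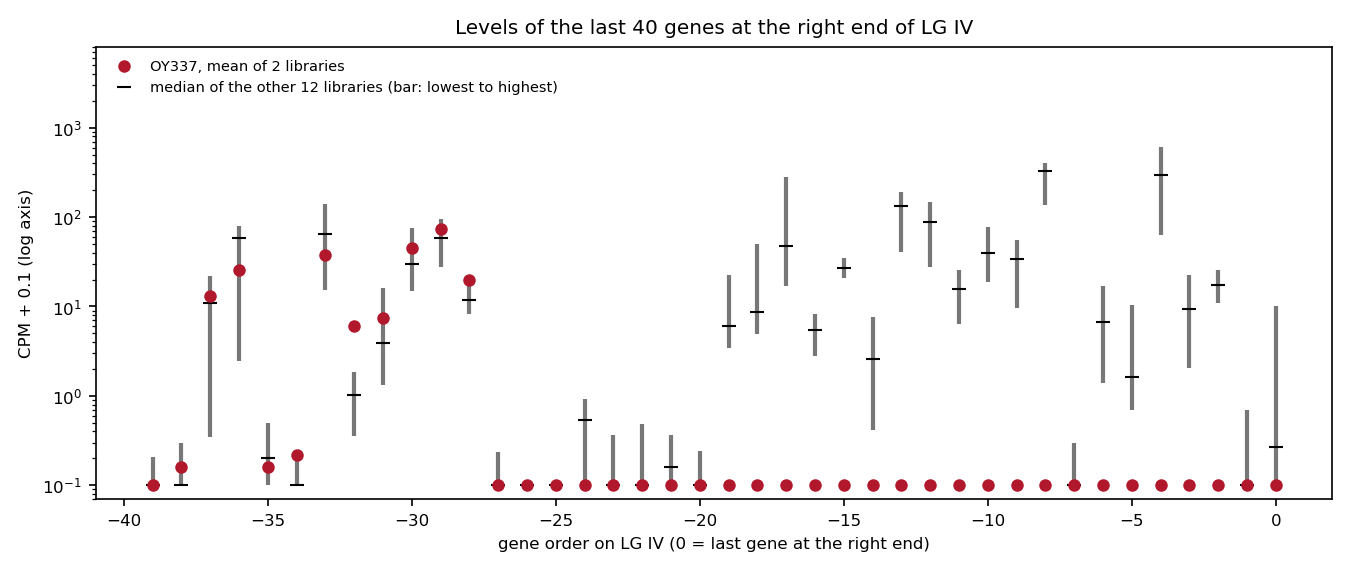
CPM + 0.1 (vertical log axis) of the last 40 genes on LG IV in their order (horizontal axis, 0 is the last gene), with the OY337 mean in red, and the median (dash) and range (bar) of the other 12 libraries. All 28 genes from position −27 to 0 are at 0 reads in OY337, and the genes further inside have reads.

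Just inside this edge, the first gene with reads was higher in OY337 than in all 12 other libraries. NCU05180, named with NCU05182 after the values were seen, had 20.1 and 19.2 CPM in OY337, against 8.16, 11.7 and 18.4 CPM (log2 fold change 0.68, SE 0.13, adjusted p = 0.0106). NCU05182 had 71.5 and 75.2 CPM, against 27.6, 58.0 and 96.2 CPM, and was not called (adjusted p = 0.146). NCU05184, the listed loss with the largest rise, had 6.79 and 4.99 CPM in OY337, against 0.256, 0.924 and 1.75 CPM (log2 fold change 2.63, SE 0.35, adjusted p = 0.00145). Of the 18 tested losses 3 were called higher (16.7%, where 8.24% of all tested genes rose) and 0 lower. Without OY337 replicate 2, 1 was called higher. NCU08802, with the next largest fitted value, had 0.117 and 0.119 CPM in OY337, 1 read in each library, and at most 3.38 CPM elsewhere, and was not called (adjusted p = 0.244).

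On LG II, the genes from arg-12 to the end had falls at the share of the whole genome (2.74%), and the listed gains lie before arg-12. The study did not detect the OY337 breakpoint by sequencing, and arg-12 is only a marker inside the moved segment. How many of the genes before arg-12 also moved is therefore not known. From arg-12 to the end, 36 of 334 tested genes were higher and 9 lower (10.8% and 2.69%), with a median of 0.03, and none is listed as a gain. Before arg-12, 29 of 543 were higher and 26 lower (5.34% and 4.79%), and all 59 listed gains are here. Of the 43 tested gains, 14 were called lower and 1 higher. Without OY337 replicate 1 there were 4 called lower, and without replicate 2 there were 3. They include the 5 neighbours NCU16549, NCU06774, NCU06773, NCU06772 and NCU06771. NCU06772 had 0.468 and 1.43 CPM in OY337, against 18.1, 27.5 and 45.9 CPM in the others (log2 fold change −4.90, SE 0.34, adjusted p = 2.81e-05). NCU06792 had 0 reads in OY337 and 0.125 to 2.87 CPM elsewhere, at least 5.3-fold lower than the mean elsewhere on the same limit. The difference between the 2 sides of arg-12 was not tested.

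Outside these ends, rises were found on every linkage group, but unevenly between windows. By linkage group the share of tested genes called higher was from 5.95% on LG V to 11.9% on LG VII, and that called lower was from 1.71% on LG VI to 3.99% on LG II. In 83 windows of 500 kb with at least 20 tested genes, the median share called higher was 7.58%. The highest was 40.3%, in the second window of LG IV, where 25 of 62 genes were higher and 0 lower. There the median log2 difference of OY337 was 1.74 from ALS159 and 0.19 to 0.58 from the other 5 strains. Of the 62 genes, 18 are listed as gaining H3K27me2/3 in ALS159, 8 of them called higher in OY337. Without ALS159 and UK3-41, 7 genes of this window were called higher. The next highest shares were 22% and 19.6%, in windows 11 and 10 of LG III, with 11 of 50 and 11 of 56 genes higher. In both, the median log2 difference of OY337 was above 0 from all 6 strains (0.10 to 0.69 and 0.05 to 0.34), and 3 genes of each were called without ALS159 and UK3-41. The window at the left end of LG VII had 19 of 104 genes higher, with a median log2 difference of 1.02 from ALS159 and −0.12 to 0.31 from the others. The largest share of falls, 19.2% (20 of 104), was in the window that holds the end of LG IV without reads in OY337. In the window of LG II with the gains, 17 of 103 genes (16.5%) were lower, 14 of them listed.

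Most unlisted calls were in genes listed for no strain, but so were most of the unlisted genes tested (7869 of 8109). Of 240 tested genes listed for at least 1 of the 6 other strains and not for OY337, 41 were higher in OY337 (17.1%) and 12 lower (5%). The remaining 7869 genes had 628 rises (7.98%) and 198 falls (2.52%). The difference between these shares was not tested. Of 51 tested gains of ALS159, 15 were higher and 1 lower (median log2 fold change 0.51). Of 12 tested losses of UK2-32, 9 were lower in OY337 and 0 higher, and all 9 lie in the end of LG IV without OY337 reads described above. 

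Runs of neighbours called the same way were counted over the whole genome. There were 21 runs of at least 3 neighbouring tested genes called higher, the longest of 5 genes (NCU04909 to NCU04914 on LG IV), and 5 runs called lower. Of the lower runs, those at the end of LG IV and at the LG II gains were described above. In the second window of LG IV lay also the run of gh18-4, NCU04884 and NCU04885 and that of NCU04949, NCU04950 and NCU04951. On LG I the run NCU01970, NCU01969 and NCU01968 held a gene that differed from all 6 strains.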

How the data were processed

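Poly(A) mRNA of 7 translocation strains was sequenced in 2 libraries each. The counts were deposited by the authors as raw reads per gene, and the submitters' notes name TopHat, SAMtools and HTSeq among their tools. Strandedness and the annotation used for counting are not given in the sources used here. Summary rows, 5.61 to 26.3% of reads, were dropped, leaving 9730 genes, of which 9729 matched RefSeq (assembly NC12), used only for names, linkage group and order, since the study used a corrected NC12. The deposited gain and loss table gave the listed genes. Its fold changes and p-values are the authors' comparisons and were not used, nor was 1 further per-sample column.

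edgeR 4.0.16 (R 4.3.3) was run with TMM, filterByExpr by strain (8170 genes kept) and strain as the factor. OY337 was set against the mean of 6 strains, Benjamini-Hochberg adjusted over all genes tested, with a threshold of 0.05. The fit was run on simulated counts with the same mean in all strains, apart from a set of genes changed in OY337 alone. The spread was the same for all genes. Distant reference strains and unequal spread between strains were not simulated. The SE is the log2 fold change divided by the root of F. DESeq2 1.42.0, other scaling and filters, a replicate block, left-out libraries and left-out strains were alternatives. Depth was 6435058 to 27994440 reads on genes. Libraries of a strain are replicate samples, and replicate numbers come from file names alone.

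Named genes were the genotype and mating genes, the 10 largest rises and falls beyond all 12 other libraries (mean of at least 10 CPM in the higher group), up to 4 called members of each list by p, genes with at most 1 count in OY337 and at least 1 CPM elsewhere, the 5 calls of highest mean CPM in each direction and the 2 largest listed changes of each kind. Others are said to be named after their values were seen. The members and lists were chosen with earlier results of these data known. Lists were matched by symbol.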

Additional observations from a re-analysis of the deposited data

How the results depend on the processing

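Against 669 unlisted genes higher and 210 lower in OY337, the counts moved both with the strains in the reference and with the loss of an OY337 library. Higher counts were 296 without ALS159, 367 without UK3-41, 135 without both and 1216 without OY329. Lower counts were 117, 95, 71 and 930 in the same order, and 335 without AR16 and 335 without UK2-32. With DESeq2, 826 were higher and 416 lower, and with library totals in place of TMM factors 818 and 153. A further minimum of 1 on the log2 scale left 311 and 70. Leaving out 1 library at a time gave 103 to 987 higher and 25 to 439 lower, the lowest without OY337 replicate 1. Besides the OY337 libraries, the lower count moved by over 1.5 times without AR16 replicate 1 (437), OY329 replicate 1 (391), OY329 replicate 3 (439) and UK2-32 replicate 1 (130). Of the 14 listed gains called lower, 8 were called without UK3-41, 5 without both strains, 8 with the minimum of 1, and 3 to 16 with 1 library left out. The 3 listed losses called higher became 6 without OY329 and 1 to 4 with 1 library left out. No called unlisted gene was called in the other direction in any setting. Signs turned for cry without UK3-41 (−0.33) and without both strains (−0.60), for con-8 without both (−0.054) and for am without UK3-41 (−0.24). The cause of these changes was not tested.

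Replicate numbers showed no consistent pairing of the libraries: over 15 pairs of strains, deviations correlated at −0.26 to 0.39 (median −0.002), with 3 over 0.1. OY329, numbered 1 and 3, was not among these pairs. A pairing in some strains is not excluded. With the replicate number as a block, 956 unlisted genes were higher and 444 lower, against 669 and 210 without it.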
